A study of Mus musculus with 8 samples.

Results

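Major urinary protein genes, named Mup and a number, were read by 8 of the 25697 probes of the array, which carried 5 of the 16593 gene symbols on it. The probes were chosen by name, as all those whose annotated symbol is Mup followed by digits, and no measured value entered the choice. They were 2 probes for Mup2, 3 for Mup5 and 1 each for Mup6, Mup20 and Mup21. Mup1, Mup3 and Mup4 had no probe of that name and were not analysed here. Each mouse gave 1 liver RNA sample and 1 Illumina bead array, on which a probe's brightness is its signal. The 4 heterozygous mice carried the allele Jag1K295*/+, a stop codon in 1 copy of Jag1, which encodes a ligand of the Notch receptors. The 4 wild-type mice carried no such allele, and all 8 mice were males of the strain C3HeB/FeJ, aged 21 weeks. The design text names Alagille syndrome, in which bile ducts are few, as the disease these mice stand for. The titles write "hom" for these mice, but they are heterozygous by genotype label and design text, which was followed.

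Major urinary proteins are small lipocalins, barrel-shaped proteins that hold volatile compounds in an inner pocket. Hepatocytes of male mice secrete them in large amounts, the kidney passes them, and they carry scent signals in urine. Their transcription in liver responds to growth hormone, whose pulses differ between males and females, and to androgens, glucocorticoids and thyroid hormone. The genes arose by repeated duplication, so that many are nearly identical.

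The Mup genes lie in 1 cluster on chromosome 4. The GRCm38.p6 annotation of the C57BL/6J genome lists 22 of them, and in order along the chromosome Mup6 is number 2, Mup2 number 4, Mup5 number 19, Mup20 number 20 and Mup21 number 22. The arrays thus named probes for 5 of 22 genes. Their names are also shared. The annotation gives Mup6 as a synonym of 4 other genes (Mup9, Mup16, Mup18 and Mup19). It gives Mup2 as a synonym of Mup6 and Mup9, and Mup5 as a synonym of Mup8. The probes' identifiers and accessions matched the current genes of the same symbol for all 8 probes. The sequences of the probes were not used here, so which of the 22 transcripts each probe binds was not tested, and a signal may sum several genes.

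RefSeq promoter windows of GRCm38.p6, from 250 bases before to 50 after the annotated start, were matched by gene for 3 of the 5 genes, Mup2, Mup6 and Mup21. They are printed to show how alike the genes are at their starts, 5′ to 3′, with matches to the searched motifs in capitals. The capitals TATATAA mark a TATA-like sequence, and TGTTCT marks a half-site of the kind that steroid hormone receptors bind. The TATA-like match began 29 bases before the annotated start for Mup6, 27 for Mup2 and 8 for Mup21. It thus did not lie at 1 place relative to the annotated starts.
Mup6 (chr4:60003231-60003530, plus strand): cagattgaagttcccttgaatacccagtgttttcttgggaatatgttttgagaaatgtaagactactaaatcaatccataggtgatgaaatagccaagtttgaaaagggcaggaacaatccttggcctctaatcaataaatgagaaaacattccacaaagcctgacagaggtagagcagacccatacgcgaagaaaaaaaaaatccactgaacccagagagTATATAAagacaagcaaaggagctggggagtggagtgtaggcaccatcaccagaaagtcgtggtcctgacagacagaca
Mup2 (chr4:60139807-60140106, minus strand): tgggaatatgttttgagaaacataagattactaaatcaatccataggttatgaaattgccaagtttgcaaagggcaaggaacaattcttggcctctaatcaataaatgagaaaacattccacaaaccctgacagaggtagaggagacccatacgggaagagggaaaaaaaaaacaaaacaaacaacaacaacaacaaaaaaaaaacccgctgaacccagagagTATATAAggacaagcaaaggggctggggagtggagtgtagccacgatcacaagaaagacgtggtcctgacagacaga
Mup21 (chr4:62150792-62151091, minus strand): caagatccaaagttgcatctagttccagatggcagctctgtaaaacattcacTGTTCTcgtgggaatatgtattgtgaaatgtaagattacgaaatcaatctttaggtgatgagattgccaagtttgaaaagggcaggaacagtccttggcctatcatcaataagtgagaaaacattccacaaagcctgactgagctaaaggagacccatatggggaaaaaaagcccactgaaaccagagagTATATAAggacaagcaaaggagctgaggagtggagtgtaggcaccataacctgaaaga

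Both strands were searched. TATATAA was present in 13 of the 14 Mup windows of the table, against 3.24% of all 32851 windows. TGTTCT was in 2 of the 14, those of Mup3 and Mup21, against 19.0% of all windows. The STAT palindrome TTCNNNGAA was in 0 of 14, against 8.30% of all windows, which says only that these letters are not in these windows. After global alignment with free ends, the windows of Mup6 and Mup2 shared 245 of 263 aligned bases (93.2%), those of Mup6 and Mup21 shared 235 of 275 (85.5%), and those of Mup2 and Mup21 shared 209 of 240 (87.1%). These shares leave out columns with gaps. With gaps inside the aligned stretch counted they were 81.7%, 84.2% and 74.4%, so the order of the pairs depends on the measure. Over all 91 pairs of the 14 windows, identity without gaps ran from 83.3% to 100% with a median of 93.4%.

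Mean signal per array was 422 to 453 on the heterozygous arrays, against 438 to 488 on the wild-type arrays. Between 11022 and 11873 probes per array had a detection p-value under 0.05, the chance that a negative control is as bright. Heterozygous replicate 4 stood apart on the first principal component of the tested probes, at 24.3 with the other arrays between -12.3 and 6.90, a component that held 30.3% of the variance. The Jag1 probe was detected on 0 of 8 arrays, and could not serve as a check of genotype. Of 7 hepatocyte markers 5 were tested, with a mean log2 signal of 12.7 to 12.9 on heterozygous and 12.7 to 12.8 on wild-type arrays. The albumin gene Alb was detected on 2 of 8 arrays and Tat on 0, although the tissue is liver. Of the markers of other cell types on the array, 4 of 4 macrophage, 6 of 6 endothelial, 4 of 6 stellate, 3 of 3 erythroid, 1 of 4 bile duct and 1 of 5 pancreatic acinar genes were tested, and 0 of them passed limma's adjusted p. Their estimates were below 0 for 3 of 3 erythroid genes (median log2 fold change -0.43, 2 with an unadjusted p under 0.05), 5 of 6 endothelial (-0.12), 4 of 4 stellate (-0.12) and 3 of 4 macrophage genes (-0.18). Their median r with the mean of the Mup probes over the 8 arrays was 0.01 for erythroid, -0.57 for endothelial, -0.22 for stellate and -0.41 for macrophage genes. Over all named tested probes the median r was 0.00, and it was 0.34 with median scaling of the arrays and 0.49 with no normalization between them. The values of r for these markers were computed with 1 scaling only. The mean log2 level over each list overlapped between the genotypes. It was 10.2 to 10.4 on heterozygous and 10.3 to 10.9 on wild-type arrays for erythroid genes, and 7.04 to 7.30 on heterozygous and 7.20 to 7.37 on wild-type arrays for endothelial genes. It was 6.55 to 6.77 on heterozygous and 6.77 to 6.85 on wild-type arrays for stellate genes, and 6.40 to 6.82 on heterozygous and 6.59 to 6.81 on wild-type arrays for macrophage genes. Their part in the Mup values was not tested. The labels name no chip or day, so a batch could not be looked for.

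Mup21, Mup2 and Mup6 each had a probe near the top of the signal range. The Mup21 probe (ILMN_2818498) had signals of 19233, 18198, 17461 and 18020 on the heterozygous arrays and 18853, 19819, 17278 and 18212 on the wild-type arrays. The groups overlapped, and the lowest signal was in wild-type replicate 3. The brighter Mup2 probe (ILMN_3065459, called Mup2 probe 1 here) had 17859, 16770, 17834 and 15852 on the heterozygous arrays and 17640, 17124, 17448 and 16958 on the wild-type arrays. Heterozygous replicate 4 was the lowest of the 8, and the wild-type values lay inside the heterozygous range. The Mup6 probe (ILMN_2953807) had 13902, 14233, 14719 and 13769 on the heterozygous arrays and 13736, 14920, 13050 and 14646 on the wild-type arrays. Here the heterozygous values lay inside the wild-type range. Over the 8 arrays the highest signal was 1.15 times the lowest for Mup21, 1.13 times for Mup2 probe 1 and 1.14 times for Mup6.

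The files carry no saturation flag, and the brightest probe of each array reached 25482 to 27841. Relative to that maximum, Mup21 stood at 62.6% to 73.4%, Mup2 probe 1 at 59.2% to 70.0% and Mup6 at 47.3% to 57.8%. Between 74 and 102 probes per array were above 0.5 of the maximum. The signal of 1 probe is no measure of RNA amount relative to another probe, so these figures place the probes within the range of the scanner only. Among the 150 tested probes with a mean signal above 10000, the largest difference between genotypes was 0.33 on the log2 scale. It was 1.22 among the 509 probes between 3000 and 10000, but a largest value also depends on the number of probes. The median absolute log2 fold change was 0.04 among the 150 and 0.07 among the 509. Whether the brightest probes respond less than in proportion to RNA was not tested.

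The symbols Mup2 and Mup5 were also carried by dimmer probes, and probes of 1 symbol gave different pictures. The other Mup2 probe (ILMN_3143404, Mup2 probe 2) had signals of 3991, 5026, 6144 and 4841 on the heterozygous arrays and 3253, 4525, 6739 and 6422 on the wild-type arrays. Wild-type replicate 1 was the lowest and wild-type replicate 3 the highest, 2.07 times apart, with the heterozygous values between them. Mup5, whose transcripts are also known from salivary glands, had its brightest probe (ILMN_3158509, Mup5 probe 1) at 5110, 5243, 7467 and 6637 on the heterozygous arrays and 5435, 6374, 7395 and 7033 on the wild-type arrays. Heterozygous replicates 1 and 2 were low and replicate 3 was high, and the wild-type values lay between.

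A further Mup5 probe (ILMN_3079257, Mup5 probe 2) was dim but detected on 8 of 8 arrays. Its signals were 198, 184, 215 and 186 on the heterozygous arrays and 173, 184, 223 and 220 on the wild-type arrays, and the groups overlapped. The third Mup5 probe (ILMN_1226884) was detected on 0 of 8 arrays, with detection p-values from 0.311 to 1. Its signals were 104 to 110 on the heterozygous arrays and 107 to 125 on the wild-type arrays, and no fold is given for it. Of the salivary and lacrimal gland markers on the array, 1 of 6 was tested, the amylase gene Amy1, which liver also expresses, with a log2 fold change of 0.02.

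Mup20 encodes darcin, the male pheromone of mouse urine. Its probe (ILMN_2881950) had signals of 4076, 4374, 4087 and 4098 on the heterozygous arrays and 3435, 4080, 5456 and 4871 on the wild-type arrays. Every heterozygous value lay inside the wild-type range, which was the wider. The coefficient of variation was 3.45% on the heterozygous arrays and 19.9% on the wild-type arrays.

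**Figure D1:**
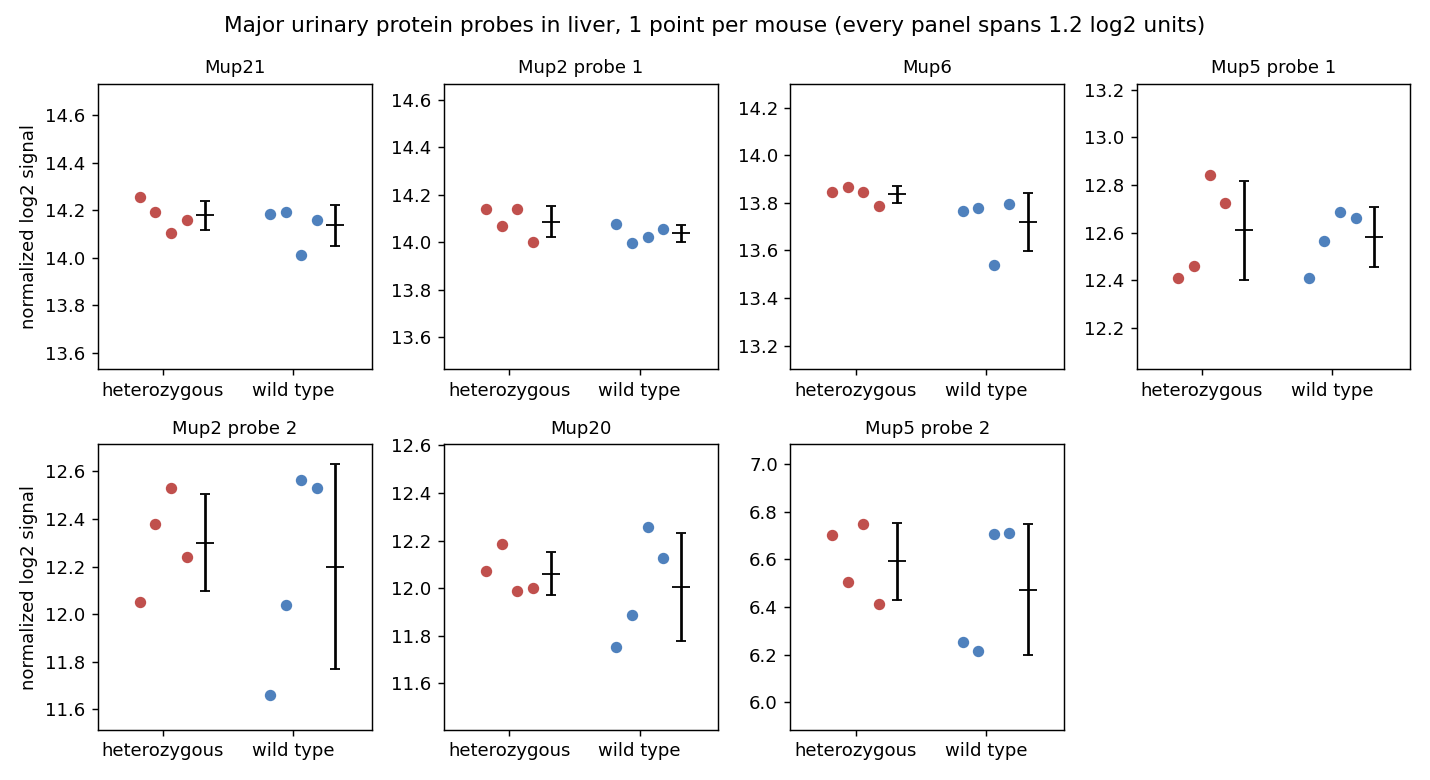
Normalized log2 signal of the 7 tested Mup probes, 1 panel each, with the 4 heterozygous mice in red on the left and the 4 wild-type mice in blue on the right of each panel. Black marks are the mean and SD (n = 4), and every panel spans 1.2 log2 units. The groups overlap in all 7 panels, and the Mup21, Mup2 probe 1 and Mup6 points lie closer together than those of Mup2 probe 2.

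No Mup probe passed the test between the genotypes. After background correction and quantile normalization the log2 signal of Mup21 was 14.18 ± 0.06 in heterozygous and 14.14 ± 0.09 in wild-type liver (SD, n = 4 each), and that of Mup20 was 12.06 ± 0.09 in heterozygous and 12.01 ± 0.23 in wild-type liver (SD, n = 4 each). The largest log2 fold changes, heterozygous minus wild type, were 0.12 ± 0.14 (SE) for Mup5 probe 2 and 0.12 ± 0.08 (SE) for Mup6, with limma adjusted p-values of 0.774 and 0.619. Mup2 probe 2 was at 0.10 ± 0.19, Mup20 at 0.06 ± 0.11, Mup2 probe 1 at 0.05 ± 0.07, Mup21 at 0.04 ± 0.08 and Mup5 probe 1 at 0.03 ± 0.11 (SE), with limma adjusted p-values from 0.833 to 0.947. Of the 7 tested Mup probes 0 passed limma's adjusted p of 0.05, and 0.00876% of all 11412 tested probes did. At an unadjusted p under 0.05 there were 0 of 7, against 11.2% of all tested probes. The 4 arrays of 1 genotype lay wholly on 1 side of the other 4 for 0 of 7, against 6.25% of all tested probes. In bulk RNA, fewer cells of a type and less RNA per cell cannot be told apart.

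The estimates were above 0 for 7 of 7 probes, with a median log2 fold change of 0.06 beside 0.01 over all tested probes. With median scaling in place of quantile normalization Mup20 came to -0.01 and Mup5 probe 1 to -0.04, where the median of all probes was itself at -0.04. With no normalization between arrays that median was at -0.10. Relative to the median of all probes, which removes this common shift, the Mup probes lay between -0.01 (Mup5 probe 1) and 0.12 under either setting. The intervals limit what the data allow. The 95% interval of the fold ran from 0.913 to 1.16 for Mup21, from 0.926 to 1.16 for Mup2 probe 1, and from 0.956 to 1.23 for Mup6. It ran from 0.798 to 1.44 for Mup2 probe 2, which was the widest, from 0.872 to 1.24 for Mup20, from 0.856 to 1.22 for Mup5 probe 1 and from 0.879 to 1.34 for Mup5 probe 2. Changes inside these limits were not excluded, and for the 3 brightest probes the limits hold for the signal.

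**Figure D2:**
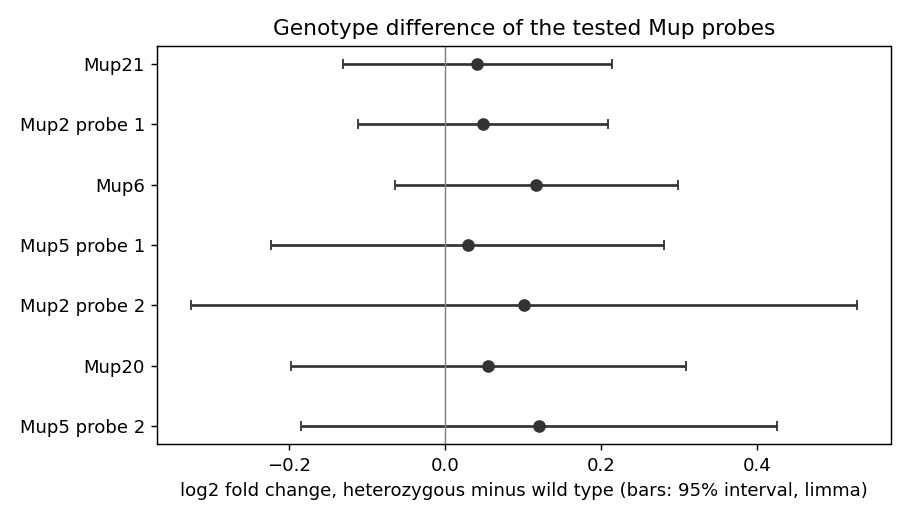
Log2 fold change of each tested Mup probe, heterozygous minus wild type, on the horizontal axis, with the 95% interval of limma's fit as bars and a grey line at 0. All 7 intervals include 0, and that of Mup2 probe 2, from -0.33 to 0.53, is the widest.

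The within-genotype SD of the log2 signal, pooled over both genotypes, was 0.34 for Mup2 probe 2, which was larger than or equal to that of 96.5% of all tested probes. It was 0.23 for Mup5 probe 2, 0.17 for Mup20 and 0.17 for Mup5 probe 1, at percentiles of 79.9, 60.4 and 60.1. The 3 brightest probes were among the steadiest of the array. Mup6 had an SD of 0.09, Mup21 of 0.08 and Mup2 probe 1 of 0.05, at percentiles of 14.8, 8.10 and 2.23.

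Spread also fell with brightness over the whole array, so each probe was set beside others of like signal. The median within-genotype SD was 0.17 for the 4177 tested probes with a mean signal of 150 to 300, 0.10 for the 509 between 3000 and 10000, and 0.07 for the 150 above 10000. Among the 509, Mup2 probe 2 was at percentile 98.2, Mup20 at 88.0 and Mup5 probe 1 at 87.4. Among the 150 brightest, Mup6 was at percentile 68.7, Mup21 at 57.3 and Mup2 probe 1 at 32.7, so the small spread of these was usual for such bright probes. Mup5 probe 2 was at percentile 75.2 of its signal class.

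**Figure D3:**
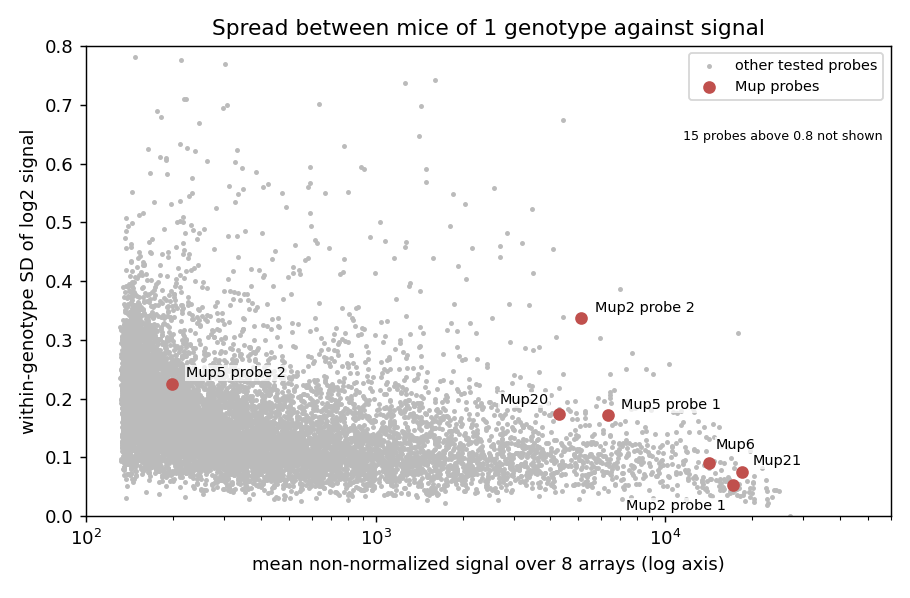
Within-genotype SD of the normalized log2 signal (vertical axis) against mean non-normalized signal over 8 arrays (horizontal log axis), 1 point per tested probe, with the 7 Mup probes in red and 15 other probes above 0.8 outside the plot. Mup2 probe 2 stands high among probes of its signal. Mup6, Mup21 and Mup2 probe 1 lie in the low right corner where most probes vary little.

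Within the heterozygous mice the SD was smaller than within the wild-type mice for 5 of the 7 tested Mup probes. It was 0.20 against 0.43 for Mup2 probe 2, 0.09 against 0.23 for Mup20, and 0.16 against 0.27 for Mup5 probe 2. It was larger in the heterozygous mice for Mup5 probe 1, at 0.21 against 0.13, and for Mup2 probe 1, at 0.07 against 0.04. An SD of 4 mice is imprecise, and the difference in spread was not tested. In Mup6 the wild-type SD of 0.12 rested on replicate 3, at a log2 signal of 13.54 with the other 3 at 13.77 to 13.80, and without that array the pooled SD of Mup6 was 0.029. Without background correction the SD of Mup5 probe 2 was 0.097.

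The 4 dimmer probes shared a pattern among the wild-type mice. Mup2 probe 2, Mup5 probe 1, Mup5 probe 2 and Mup20 were each lower in wild-type replicates 1 and 2 than in wild-type replicates 3 and 4. Among the heterozygous mice Mup20 was highest in replicate 2 and the other 3 in replicate 3. Over the 8 arrays Mup2 probe 2 correlated with Mup20 (Pearson r = 0.81, exact permutation p = 0.015, adjusted over the 21 pairs of probes 0.195, Spearman rho = 0.76, exact permutation p = 0.038, adjusted 0.267) and with Mup5 probe 2 (r = 0.74, exact permutation p = 0.034, adjusted 0.195, rho = 0.83, exact permutation p = 0.017, adjusted 0.232). Without the 2 arrays farthest from the median of Mup2 probe 2 these values of r fell to 0.37 and 0.36, so they rest largely on those arrays. With Mup5 probe 1, Mup2 probe 2 had r = 0.71 (exact permutation p = 0.050, adjusted 0.195, rho = 0.66, exact permutation p = 0.082, adjusted 0.345), and r = 0.64 without those arrays. The pair of Mup2 probes, although they carry 1 symbol, had r = -0.02 (exact permutation p = 0.970, adjusted 0.970) and rho = 0.01 (exact permutation p = 0.994, adjusted 0.994). Without the 2 arrays farthest from the median of Mup2 probe 1 their r was -0.17. Mup5 probes 1 and 2 had r = 0.41 (exact permutation p = 0.310, adjusted 0.592) and rho = 0.49 (exact permutation p = 0.222, adjusted 0.466). Without the 2 arrays farthest from the median of Mup5 probe 1 their r was -0.05.

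Mup21 had values of r below 0 with the 4 dimmer probes and above 0 with Mup6. It had r = -0.67 with Mup5 probe 1 (exact permutation p = 0.056, adjusted 0.195, rho = -0.80, exact permutation p = 0.022, adjusted 0.232). Without the 2 arrays farthest from the median of Mup5 probe 1 this r was -0.69. With Mup6, Mup21 had r = 0.78 (exact permutation p = 0.054, adjusted 0.195, rho = 0.41, exact permutation p = 0.309, adjusted 0.590). Without the 2 arrays farthest from the median of Mup6, among them wild-type replicate 3, this r was 0.01. Of the 21 pairs 0 passed the adjusted p, 3 had an unadjusted p under 0.05, and 10 had an r above 0. With each genotype centred on its own mean, Mup2 probe 2 had r = 0.80 with Mup20 and 0.74 with Mup5 probe 2. Mup20 had r = 0.70 with Mup5 probe 2. Within the heterozygous mice alone these pairs, in the same order, had r = -0.10, 0.12 and -0.23. Within the wild-type mice alone they had 0.97, 0.91 and 0.93, so these correlations rested on the wild-type mice. An r over 4 mice is imprecise. All points share the same 8 arrays and their scaling.

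**Figure D4:**
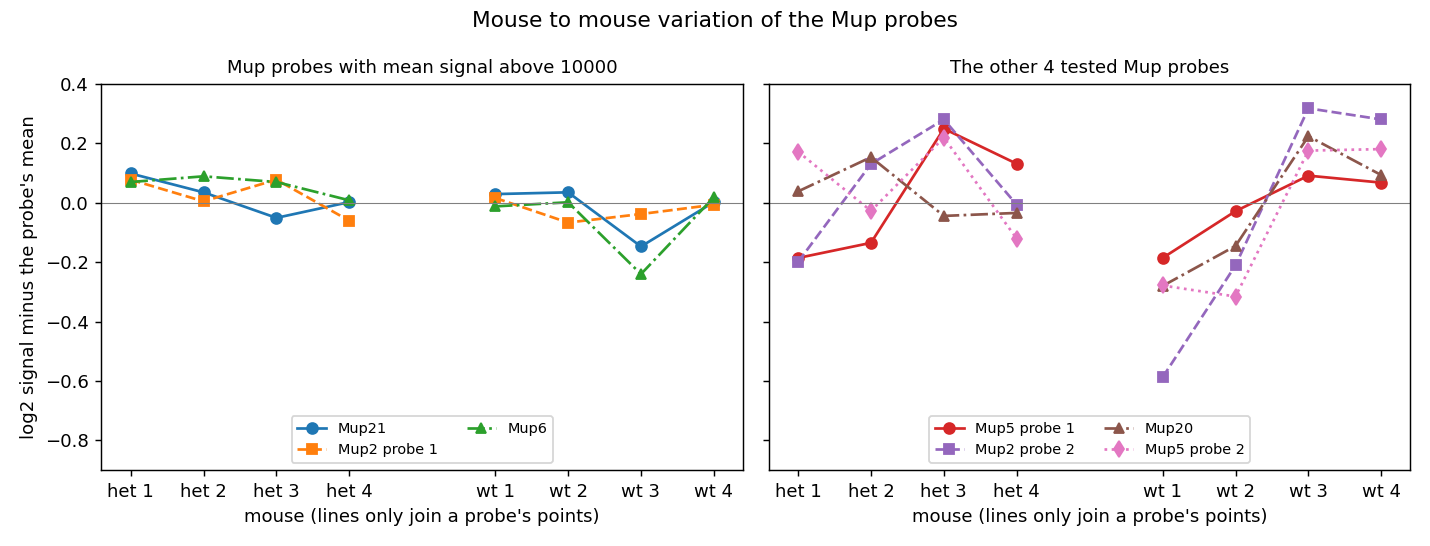
Log2 signal of each tested Mup probe minus the probe's own mean (vertical axis) in the 4 heterozygous and then the 4 wild-type mice (horizontal axis), with the 3 probes of mean signal above 10000 in the left panel and the other 4 in the right. Wild-type replicate 1 is low in all 4 lines on the right, and wild-type replicate 3 is low for Mup6 and Mup21 on the left.

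The genes most like the mean of the Mup probes were found by Pearson correlation, over the 8 arrays, with the 7 tested Mup probes averaged after each was centred. The probes were not brought to 1 spread before averaging. Mup2 probe 2, with an SD of 0.34, thus weighs more in this mean than the 3 brightest, at 0.05 to 0.09. Of the 21 pairs of these probes 10 had an r above 0, so the mean is not a profile that all of them share. This mean was lowest in wild-type replicates 1 and 2, at -0.19 and -0.10, and highest in heterozygous replicate 3, at 0.11. Of 10750 tested probes of other named genes, the most alike were Cyp4v3, a cytochrome P450 of fatty acids (r = 0.96), Ywhaq, a 14-3-3 adaptor (0.96), Tmem106b, a lysosomal membrane protein (0.95), Slc30a5, a zinc transporter (0.95), and Haus6, a subunit of the augmin complex of the spindle (0.94). Cyp4v3 had log2 signals of 12.51, 12.51, 12.60 and 12.45 on the heterozygous arrays and 12.30, 12.32, 12.49 and 12.53 on the wild-type arrays. The most opposite were Bloc1s1, a subunit of a lysosome-related organelle complex (-0.99), Nid1, a basement membrane glycoprotein (-0.94), and Dnase1l3, a secreted nuclease (-0.93). These are the extremes of many candidates over 8 arrays, so they describe the samples and carry no test. With median scaling Cyp4v3 was at 0.98, whereas Bloc1s1 moved to -0.07, Nid1 to -0.61 and Dnase1l3 to -0.49. With no normalization between arrays Cyp4v3 was at 0.99, Bloc1s1 at 0.32, Nid1 at -0.40 and Dnase1l3 at -0.14, so the opposite genes depend on the scaling. Without wild-type replicates 1 and 2 Haus6 fell to 0.59.

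After each genotype was centred on its own mean, the most alike were Cyp4v3 (r = 0.98), Serinc1, a serine incorporator protein (0.97), Smad2, a mediator of TGF-beta signalling (0.97), Sel1l3 (0.96) and Slc10a1, the sodium-dependent bile acid uptake carrier of hepatocytes (0.95). The most opposite were Bloc1s1 (-0.99), the casein kinase gene Csnk1d (-0.98) and Cmtm8 (-0.98). Without the centring, r over the 8 arrays was -0.84 for Csnk1d and -0.80 for Cmtm8, and it moved to 0.21 and -0.57 with median scaling and to 0.51 and -0.32 with no normalization. Of the 14 genes named here 0 passed the test between genotypes, with limma adjusted p-values from 0.562 to 0.960.

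Mup genes belong to the male-biased genes of liver, and the other genes of that list were set beside them. Of 20 genes listed 17 were tested and 0 passed limma's adjusted p in either direction. The estimates were above 0 for 14 and below 0 for 3. Their median log2 fold change was 0.13, beside 0.01 over all tested probes. This list and those below were chosen with earlier results of these data known, and no list was tested as a set. The smallest p-values were those of the growth factor receptor gene Egfr, at 0.65 ± 0.26 (SE), the complement gene C8a, at 0.22 ± 0.09, Cyp7b1, an oxysterol and steroid hydroxylase, at 0.25 ± 0.12, and Susd4, a complement regulator, at 0.21 ± 0.12, with limma adjusted p-values from 0.403 to 0.524. Egfr was read by 4 tested probes, of which the brightest is given. Over the 8 arrays 16 of these 17 genes had an r above 0 with the Mup mean, with a median r of 0.46, while 50.4% of all named tested probes did. With median scaling 17 of 17 did (median r 0.57), but so did 78.2% of all probes (median r 0.34), and with no normalization 17 of 17 (0.60) beside 88.8% of all probes (0.49). Without wild-type replicates 1 and 2, the farthest from the median, 9 of 17 did and the median r was 0.08.

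Female-biased liver genes were tested for 7 of 22 listed, and 0 passed. Of the 7, 1 was above 0 and 6 were below. Their median log2 fold change was -0.30, beside 0.01 over all tested probes. The reticulon gene Rtn4 was at -0.61 ± 0.16 (SE), Cyp39a1, a bile acid synthesis enzyme, at -0.30 ± 0.18, the neurotrophin receptor gene Ntrk2 at -0.48 ± 0.38 and the transporter gene Slco1a4 at -0.12 ± 0.10, with limma adjusted p-values from 0.271 to 0.674. Rtn4 was read by 3 tested probes, of which the brightest is given. Of the 7 genes 6 had an r below 0 with the Mup mean (median -0.46). With median scaling 4 of 7 did (median -0.20), with no normalization 4 of 7 (median -0.10), and without wild-type replicates 1 and 2 it was 2 of 7 (median 0.56). Without heterozygous replicate 4 Ntrk2 was at -0.018, without wild-type replicate 1 Cyp39a1 was at -0.15, and without heterozygous replicate 2 Slco1a4 was at -0.06.

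Growth hormone acts on Mup genes through its receptor, the kinase Jak2 and the factor Stat5b. Of 15 listed genes of this pathway 11 were tested and 0 passed, 4 above 0 and 7 below, with a median of -0.04. The feedback inhibitor genes Socs3 and Cish were at -0.89 ± 0.35 and -1.89 ± 0.89 (SE), Socs2 at 0.33 ± 0.26 and Jak2 at -0.13 ± 0.08, with limma adjusted p-values from 0.398 to 0.663. Jak2 was read by 2 tested probes, of which the brighter is given. The heterozygous SD of Cish was 2.19. Its log2 fold change was -2.91 without heterozygous replicate 1 and -1.27 without heterozygous replicate 3. Socs2 ran from 0.18 to 0.54 with 1 array left out. Stat5b was detected on 0 of 8 arrays. Of 15 other regulators of Mup transcription 8 were tested and 0 passed, with a median of -0.06. Foxa2, a pioneer factor of liver, was at -0.59 ± 0.19, the nuclear receptor gene Hnf4a at 0.19 ± 0.10, the factor gene Cebpa at -0.19 ± 0.12 and the estrogen receptor gene Esr1 at 0.24 ± 0.20 (SE), with limma adjusted p-values from 0.337 to 0.675. Foxa2 passed without heterozygous replicate 1 (log2 fold change -0.81, limma adjusted p = 0.028), and was at -0.47 without heterozygous replicate 3. Cebpa was at -0.09 without heterozygous replicate 4, and Esr1 ran from 0.14 to 0.44 with 1 array left out. The transcription factor gene Zhx2 was at 0.08.

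Other lipocalins, the wider family of carrier proteins, were also set beside the Mup genes. Of 18 listed 8 were tested and 0 passed, with a median log2 fold change of 0.06. The acute phase gene Orm2 was at 0.17 ± 0.09, the retinol carrier gene Rbp4 at 0.17 ± 0.13, Apom, which carries sphingosine-1-phosphate, at 0.18 ± 0.15 and the complement gene C8g at -0.08 ± 0.08 (SE), with limma adjusted p-values from 0.481 to 0.738. Apom was at 0.06 without heterozygous replicate 4, and Rbp4 at 0.07 without heterozygous replicate 3. Of 25 abundant secreted or cytosolic hepatocyte proteins 19 were tested and 0 passed, with a median of 0.00. Among them Serpina1a was at 0.16 ± 0.09, the transthyretin gene Ttr at -0.10 ± 0.07, Serpina1c at -0.09 ± 0.07 and the fibrinogen gene Fgg at 0.10 ± 0.08 (SE), with limma adjusted p-values from 0.521 to 0.673. Serpina1a was read by 2 tested probes, of which the brighter is given. The 10 brightest genes other than Mup, led by Serpina1b, Serpina1e, Trf and Apoc3, had within-genotype SDs of 0 to 0.06. The brightest probe, of Serpina1b, has 1 value on all arrays after quantile normalization, so its SD of 0 is set by that step.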

How the data were processed

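Liver RNA of 4 heterozygous and 4 wild-type mice was measured on 1 bead array each. The authors deposited a table of non-normalized signal intensity, with a detection p-value beside each signal, and a table of processed intensity with no normalization stated in the labels. The signals came from GenomeStudio 2011.1, per the submitters' processing notes. The non-normalized signals were background-corrected with limma 3.58.1 (nec, from the detection p-values, offset 16) in R 4.3.3, quantile normalized and taken as log2, which understates fold changes of dim probes. Probes with a detection p-value under 0.05 on at least 4 of 8 arrays were tested, 11412 in all, with lmFit and eBayes, two-sided, and Benjamini-Hochberg adjustment over all of them. Correlations between Mup probes used exact two-sided permutation of the 8 arrays. Gene names came from the platform annotation, with symbols updated through the GRCm38.p6 gene table. A list gene was read by its brightest tested probe. Promoter windows were aligned with Biopython 1.88. Replicates are separate mice. Same-numbered mice had correlations of -0.07 to 0.13 over the tested probes, after the genotype mean of each probe was subtracted. The fit was tested on simulated data. The members and lists were chosen with earlier results of these data known. Named were all Mup probes, the 5 most and 3 least alike genes, the 4 list members with the smallest p, and the brightest genes. Zhx2 and the left-out-array values of Foxa2 were picked with values in view. The number of arrays limits the precision. The alternatives were other filters, background, offset, scaling, prior and weights, the processed table, the replicate block and leaving out each array.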

Additional observations from a re-analysis of the deposited data

Results flagged for a closer look

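Among 98 sets of 4 values, 1 per genotype for each named probe or array measure, 3 had 1 value widely separated from the rest, as chance would give in about 1 of 20. In wild-type replicate 4 the third Mup5 probe, not detected on any array, had a log2 signal of 4.51, with 4.27 to 4.29 on the other wild-type arrays. In wild-type replicate 3 the Mup6 probe had 13.54, with 13.77 to 13.80 on the other 3. In heterozygous replicate 4 Ttr had 14.13, with 14.22 on the other 3. The causes were not tested.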

How the results depend on the processing

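The count of Mup probes past the adjusted p stayed at 0 in all 19 alternatives, with single adjusted p-values from 0.478 to 1.00, and their median log2 fold change lay between -0.02 and 0.07 with the processing changed and between 0.04 and 0.09 with an array left out. The count over all probes, 1 in the report, was 0 without the detection filter, 0 without background correction, 3 with no normalization between arrays and 0 with the replicate number as a replicate block, and ran from 0 to 7 with an array left out. Without heterozygous replicate 1 the count over all probes was 7, without heterozygous replicate 2 it was 2, and without heterozygous replicate 3 or wild-type replicate 4 it was 0. The causes were not tested. The count of called list genes was 0, and from 0 to 1 with an array left out, Foxa2 without heterozygous replicate 1. With the replicate block 0 Mup probes passed. After the genotype mean of each probe was subtracted, 4 of 8 arrays correlated best with the same number. The labels give no pairing, so the numbers were not taken to pair the mice. Signs turned with no normalization between arrays for Mup2 probe 1 (-0.019), Mup2 probe 2 (-0.022), Mup20 (-0.080), Mup21 (-0.023), Mup5 probe 1 (-0.11) and Fgg (-0.015), where the median of all probes was -0.10. They turned with median scaling for Mup20 (-0.014) and Mup5 probe 1 (-0.045), where the median of all probes was -0.04, and with array weights for Mup5 probe 1 (-0.024). With an array left out, Mup2 probe 2 ran from -0.078 to 0.22 and Mup20 from -0.030 to 0.14, both below 0 without wild-type replicate 1. Mup21 ran from -0.00020 to 0.065, lowest without wild-type replicate 3. Mup5 probe 1 ran from -0.050 to 0.098, below 0 without heterozygous replicate 3 or 4 or wild-type replicate 1. The within-genotype SD moved by over 1.5 times for Mup6 without wild-type replicate 3 (0.029), for Mup21 without it (0.049), for Mup5 probe 2 without background correction (0.097) and for Mup2 probe 1 with median scaling (0.086). Of 24 named list genes 15 moved by over 1.5 times with 1 array left out, and 0 of them changed sign. The likeness alternatives were chosen after seeing the data. A small spread was usual for bright probes, with a median within-genotype SD of 0.07 above a signal of 10000 and a 90th percentile of 0.14. Whether this limits what the 3 brightest Mup probes can show was not tested.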
